A study of Mus musculus with 4 samples.

Results

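The 10 genes described here control entry into the cell cycle: the D-type cyclins Ccnd1, Ccnd2 and Ccnd3, their kinases Cdk4 and Cdk6, the kinase inhibitors Cdkn1a, Cdkn1b and Cdkn2c, and Cops5 and Rb1. They were taken by gene name from the array annotation, which gave 19 probes out of 41174, and they are 10 of 27597 named genes or transcripts. The arrays read messenger RNA from skeletal muscle of mice aged 10 weeks with free access to food. There were 4 genotypes with 1 array each. The WT array is the lean control with TBP-2 present. TBP-2-/- lacks TBP-2, the thioredoxin-binding protein that is now named Txnip. The ob/ob array carries the leptin-deficient genotype with TBP-2 present, and ob/ob TBP-2-/- carries both. The labels do not say which muscle was taken, whether an RNA sample was 1 mouse or a pool, the strain or sex of the mice, or which part of Txnip is deleted. The genotype field of the ob/ob sample is spelled differently from its title, and the title was used.

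D-type cyclins activate Cdk4 and Cdk6, which phosphorylate the retinoblastoma protein and so free the E2F factors that switch on the genes of DNA replication. Cdkn2c (p18) binds Cdk4 and Cdk6 directly, whereas Cdkn1a (p21) and Cdkn1b (p27) bind cyclin and kinase complexes. Cops5 (Jab1) is the catalytic subunit of the COP9 signalosome and is known to promote export of p27 from the nucleus and its breakdown, and Txnip is known to bind Cops5 and stabilise p27. That route acts on protein, which these arrays do not measure. Muscle fibres have left the cell cycle, in part through Rb1 and Cdkn1a, while satellite cells and the other dividing cells of the tissue can re-enter it. In whole muscle, fewer cells of a type and less RNA per cell cannot be told apart.

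Levels are given as relative signals, which are processed signals divided by the array's own 75th percentile, so that 1 equals that percentile. Values called signals, without the word relative, are processed signals before that division. The percentile was 292 on WT, 320 on TBP-2-/-, 321 on ob/ob and 273 on ob/ob TBP-2-/-, so ratios of such signals differ from the folds given. Folds and log2 differences are on the relative scale. Their error is the standard error (SE) of the scanner software's error model, a measure of technical error that leaves out how mice differ. Each genotype has a single array, so pair differences carry no p-value and no check against replicates.

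Between 22674 and 24220 probes per array were well above background, and the arrays shared 1 slide and 1 scan. Txnip had a signal before scaling of 13209 on the WT array, 868 on TBP-2-/-, 13142 on ob/ob and 166 on ob/ob TBP-2-/-. On the relative scale it was 16.7-fold lower without TBP-2 in lean mice and 67.5-fold lower in ob/ob mice. Whether this probe lies inside the deleted part is not stated. The 8 muscle fibre markers were detected (well above background) on every array, with summed relative signals of 7838 to 8810. The WT array stood apart in tendon markers, which summed to 20.8 there against 65.0, 91.4 and 121 on TBP-2-/-, ob/ob and ob/ob TBP-2-/-. For the 10 genes, each contrast with WT is given beside the same genotype contrast on the other background, which does not use that array. Scaling on 7 spike-in probes in place of the 75th percentile shifts every gene of a comparison by 1 constant, namely 0.25 for TBP-2-/- minus WT, -0.51 for ob/ob TBP-2-/- minus ob/ob, 0.64 for ob/ob minus WT and -0.12 for ob/ob TBP-2-/- minus TBP-2-/- (log2).

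All 10 genes were well above background on every array with their brightest probe, and 14 of the 19 probes were. The array annotation places those brightest probes on the mm8 build. Ccnd1 is read at chr7:144739658-144739717, Ccnd2 at chr6:127095295-127095354, Ccnd3 at chr17:47062509-47062568, Cdk4 at chr10:126467860-126467919, and Cdk6 at chr5:3535293-3535352. Cdkn1a is read at chr17:28828096-28828155, Cdkn1b at chr6:134890890-134890949, Cdkn2c at chr4:109159106-109159165, Cops5 at chr1:10010145-10010204 and Rb1 at chr14:71929755-71929814. No mm8 gene models were used here, so the exon or UTR under a probe is not given.

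Upstream sequence is shown for Cdkn1a, which had the largest ob/ob difference of the 10 genes, and for Cdk4, whose window held 1 of the searched motifs 4 times. RefSeq windows on GRCm38.p6 were matched for 6 of the 10 genes, and each window is the 250 bases before a transcript start. Cdkn1a has 2 annotated starts, 2790 bases apart. The upstream window lies at chr17:29090729-29090978 on the plus strand, and its capitals mark a match to the 20-base p53 consensus with 1 mismatch allowed, 51 bases before the start. The downstream window lies at chr17:29093519-29093768 on the plus strand, and its capitals mark 2 GC boxes, GGGCGG, 104 and 46 bases before the start. The Cdk4 window lies at chr10:127063285-127063534 on the plus strand, and its capitals mark 4 E-boxes, CACGTG, the motif bound by Myc.
Cdkn1a upstream start: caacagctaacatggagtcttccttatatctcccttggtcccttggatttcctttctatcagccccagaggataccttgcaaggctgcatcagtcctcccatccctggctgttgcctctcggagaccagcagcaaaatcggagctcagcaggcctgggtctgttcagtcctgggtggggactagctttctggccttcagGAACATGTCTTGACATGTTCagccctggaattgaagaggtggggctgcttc
Cdkn1a downstream start: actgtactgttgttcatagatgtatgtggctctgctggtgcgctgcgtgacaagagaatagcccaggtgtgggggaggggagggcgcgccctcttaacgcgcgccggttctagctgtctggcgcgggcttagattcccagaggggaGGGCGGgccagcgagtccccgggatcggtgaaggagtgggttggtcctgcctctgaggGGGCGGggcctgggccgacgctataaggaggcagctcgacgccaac
Cdk4: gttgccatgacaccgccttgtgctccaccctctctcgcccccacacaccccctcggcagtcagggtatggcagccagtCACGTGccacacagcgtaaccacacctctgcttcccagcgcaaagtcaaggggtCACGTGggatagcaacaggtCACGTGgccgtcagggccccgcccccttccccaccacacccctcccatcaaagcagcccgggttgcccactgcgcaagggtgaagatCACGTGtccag

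A p53 match of this kind occurred in 25 of 32851 windows of the same length (0.0761%), and among the 9 windows of these genes only in the upstream Cdkn1a window. GC boxes were common, with at least 1 in 32.7% of all windows and in 6 of these 9. The 4 E-boxes of Cdk4 lie 172, 118, 98 and 11 bases before the start. At least 1 E-box was found in 6.02% of all windows and in 2 of these 9, that of Cdk4 and that of Cdk6 (220 bases before the start). Of all windows 7 held 4 or more (0.0213%), which is the feature that Cdk4 was chosen for. The E2F motifs TTTCGCGC (0.256% of windows) and TTTGGCGC (0.417%) were in none of the 9 windows, and the FoxO motif GTAAACA (3.17%) was in 1 Ccnd3 window. Both strands were searched for each motif, no matches overlapped, and a match is a match of letters only.

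**Figure D1:**
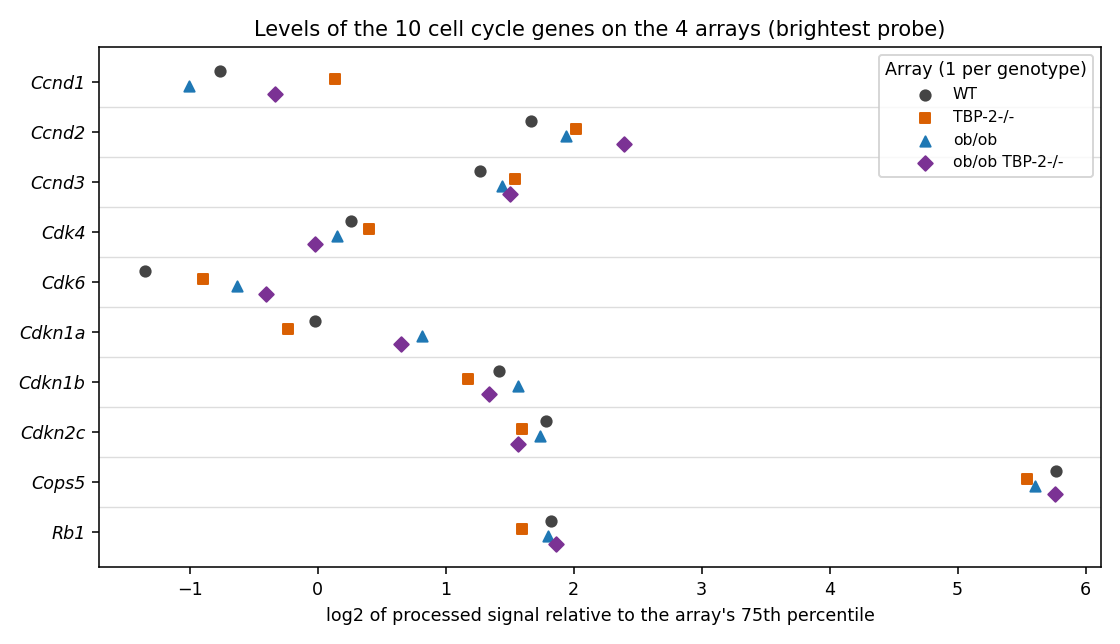
Level of the brightest probe of each gene on each of the 4 arrays, as log2 of the processed signal relative to the array's 75th percentile (x axis); each marker is 1 array. The markers of Ccnd1, Cdk6 and Cdkn1a spread furthest, over 1.14, 0.95 and 1.05 log2 units, and those of Cops5 and Cdkn2c lie within 0.23 of each other.

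Among the D-type cyclins, Ccnd1 differed most between arrays. Its relative signal was 0.590 on WT, 1.10 on TBP-2-/-, 0.498 on ob/ob and 0.793 on ob/ob TBP-2-/-. Both arrays without TBP-2 were above both arrays with it. The range from lowest to highest was 2.21-fold, at percentile 93.1 of the ranges of 14907 genes well above background on all arrays. The Ccnd1 probe is printed 10 times per array, and its spots ran from 0.548 to 0.618 on WT, 1.05 to 1.18 on TBP-2-/-, 0.481 to 0.517 on ob/ob and 0.732 to 0.847 on ob/ob TBP-2-/-. The spots of the 4 arrays did not overlap, which describes spot precision on single arrays.

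Ccnd2, a D-type cyclin that satellite cells and many other dividing cells use, had relative signals of 3.17 on WT, 4.06 on TBP-2-/-, 3.85 on ob/ob and 5.25 on ob/ob TBP-2-/-. WT was lowest and ob/ob TBP-2-/- highest by its brightest probe. Its 3 probes gave differences of one sign in each comparison but not of one size: 0.36, 0.61 and 0.63 for TBP-2-/- minus WT, and 0.45, 0.22 and 0.10 for ob/ob TBP-2-/- minus ob/ob. For ob/ob minus WT they gave 0.28, 0.43 and 0.60, and for ob/ob TBP-2-/- minus TBP-2-/- 0.37, 0.05 and 0.07. The brightest probe gave the smallest of the 3 values in the comparisons with WT and the largest in the comparisons that use ob/ob TBP-2-/-. Ccnd3, which accumulates when myoblasts differentiate, was nearly level at 2.41, 2.91, 2.72 and 2.83 in the same order of arrays.

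**Figure D2:**
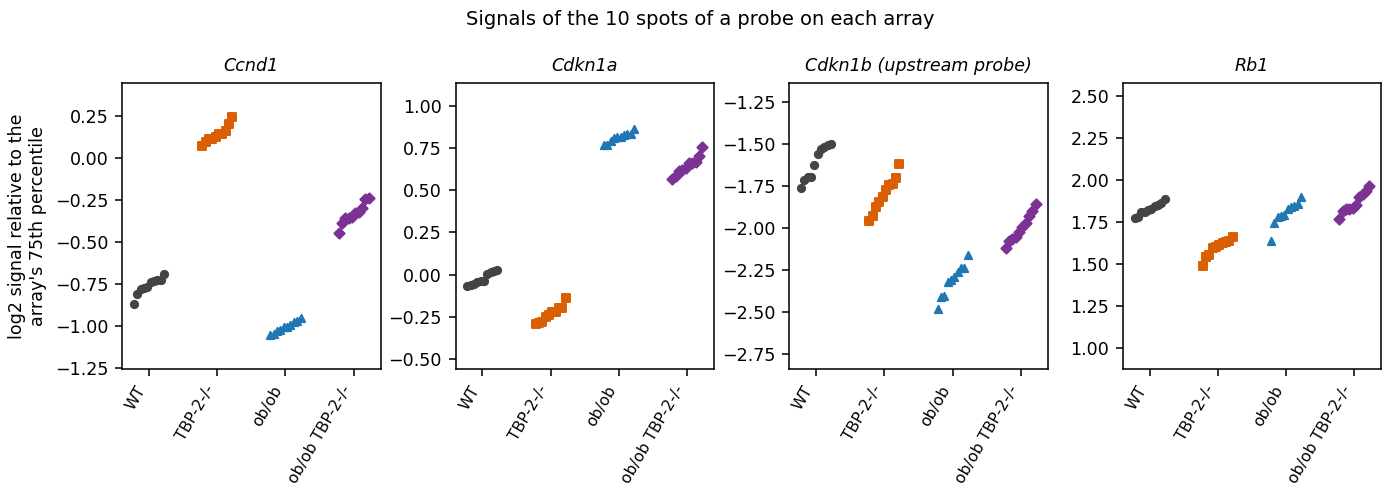
Signals of the 10 spots of 4 probes on each array, as log2 relative to the array's 75th percentile (y axis, with the same span in every panel); the points of an array are sorted by value. Spots of Ccnd1 and of Cdkn1a form separate bands for the 4 arrays, while those of the upstream Cdkn1b probe are highest on WT and TBP-2-/-, and Rb1 is lowest on TBP-2-/-.

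Of the kinases, Cdk4 had relative signals of 1.20 on WT, 1.32 on TBP-2-/-, 1.11 on ob/ob and 0.986 on ob/ob TBP-2-/-. TBP-2-/- was highest and ob/ob TBP-2-/- lowest, a range of 1.34-fold at percentile 48.8. Cdk6, its close relative, had 0.392 on WT, 0.539 on TBP-2-/-, 0.647 on ob/ob and 0.758 on ob/ob TBP-2-/-, a range of 1.93-fold at percentile 89.0. The WT array was lowest for Cdk6. This reading rests on the 1 Cdk6 probe that was detected, which the annotation assigns to a cDNA clone. The other 2 Cdk6 probes, assigned to the RefSeq transcript, were not well above background on any array.

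Of the inhibitors, Cdkn1a, the p53 target p21, had relative signals of 0.984 on WT, 0.850 on TBP-2-/-, 1.76 on ob/ob and 1.57 on ob/ob TBP-2-/-. Both ob/ob arrays were above both lean arrays, with a range of 2.07-fold at percentile 91.5. Its 10 spots per array ran from 0.956 to 1.02, 0.817 to 0.906, 1.70 to 1.82 and 1.48 to 1.69 in that order, again without overlap.

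Cdkn1b, which encodes p27, had relative signals of 2.67 on WT, 2.26 on TBP-2-/-, 2.96 on ob/ob and 2.53 on ob/ob TBP-2-/- by its brightest probe, a range of 1.31-fold at percentile 43.8. The annotation assigns this brightest probe to a cDNA clone. A dimmer probe of the gene, assigned to the RefSeq transcript, did not follow it. That probe lies 4112 bases upstream on mm8 (chr6:134886778-134886836), is printed 10 times, and ran from 0.294 to 0.354 on WT, 0.257 to 0.326 on TBP-2-/-, 0.179 to 0.224 on ob/ob and 0.230 to 0.276 on ob/ob TBP-2-/-. Its ob/ob spots lay below every WT and TBP-2-/- spot, so ob/ob minus WT was -0.70 by this probe (1.62-fold lower) and 0.15 by the brightest. The signs also differed for ob/ob TBP-2-/- minus ob/ob (0.31 against -0.23) and for ob/ob TBP-2-/- minus TBP-2-/- (-0.20 against 0.16). For TBP-2-/- minus WT the probes gave -0.19 and -0.24. A Cdkn1b probe between these 2, also assigned to the RefSeq transcript, was not well above background on any array. Cdkn2c, which encodes p18, was nearly level at 3.44, 3.02, 3.34 and 2.96, with a range of 1.16-fold at percentile 14.1.

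Cops5 was bright and level, with relative signals of 54.4 on WT, 46.5 on TBP-2-/-, 48.6 on ob/ob and 54.1 on ob/ob TBP-2-/-, a range of 1.17-fold at percentile 15.1. A second Cops5 probe, assigned to a cDNA clone, was well above background on WT and TBP-2-/- only, with signals of 25.9 and 11.4 against 2.29 and 1.96 on the ob/ob arrays. By that probe TBP-2-/- minus WT was -1.31, against -0.23 by the bright probe. Likewise ob/ob was at least 2.62-fold lower than WT, a bound set by the lowest signal well above background on the dim array. The bright Cops5 probe gave -0.16 ± 0.20 for the same pair. For ob/ob TBP-2-/- minus TBP-2-/- the bound of the second probe was only 1.06-fold lower, and the bright probe gave 0.22 ± 0.20. Rb1, the retinoblastoma gene, had relative signals of 3.55, 3.02, 3.48 and 3.64 in the order above, with TBP-2-/- lowest, and a range of 1.21-fold at percentile 22.8.

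**Figure D3:**
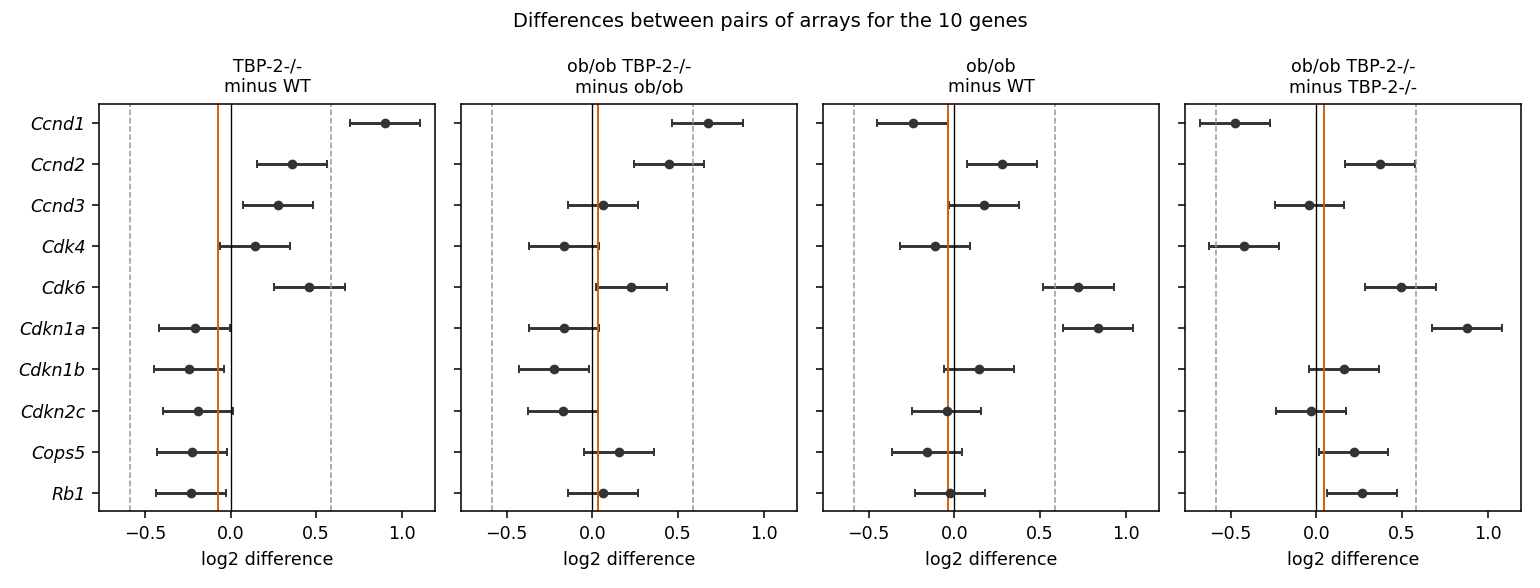
Log2 difference of each gene in the 4 comparisons (x axis); points are the brightest probe, bars the SE of the error model, dashed lines 1.5-fold and the orange line the median of all genes. Ccnd1 lies past 1.5-fold in both comparisons without TBP-2, and Cdkn1a in both ob/ob comparisons, where Cdk6 passes in 1.

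The first question of the design is what loss of TBP-2 does in lean muscle. In TBP-2-/- minus WT, Ccnd1 was 1.87-fold higher (0.90 ± 0.21), at percentile 97.9 of 15220 genes. By the brightest probes it was the only gene of the 10 past 1.5-fold. Of all genes 5.91% were higher and 3.29% lower by that much. Cdk6 (0.46 ± 0.21), Ccnd2 (0.36 ± 0.20), Ccnd3 (0.28 ± 0.20) and Cdk4 (0.14 ± 0.20) were also above 0. By its dimmer probes Ccnd2 was past 1.5-fold too (0.61 and 0.63). The brightest probes of the inhibitors, Cops5 and Rb1 had values between -0.24 and -0.19, about 1 SE below 0, and under spike-in scaling all 5 lay between 0.00 and 0.06. The median of the 10 genes was -0.03, against -0.07 for all genes.

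Loss of TBP-2 was also measured on the ob/ob background. In ob/ob TBP-2-/- minus ob/ob, Ccnd1 was 1.59-fold higher (0.67 ± 0.21), at percentile 95.2 of 15460 genes. It was again the only gene of the 10 past 1.5-fold, where 6.51% of all genes were higher and 3.65% lower. Under spike-in scaling this difference was 0.16, and with normexp background correction it was 0.50, so it passed 1.5-fold under neither. Ccnd2 was second at 0.45 ± 0.20, but its sign turned under spike-in scaling (-0.06). Of the 10 genes, 6 lay within 1 SE of 0. Cdkn1b (-0.23 ± 0.20), Cdkn2c (-0.17 ± 0.20), Cdkn1a (-0.17 ± 0.20) and Cdk4 (-0.17 ± 0.20) were below 0 by their brightest probes. The median was 0.06, against 0.03 for all genes.

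The TBP-2-/- comparisons share no array. On the relative scale the sign was the same in both for 7 of the 10 genes and differed for Cdk4, Cops5 and Rb1. Of the genes with the same sign, Ccnd3, Cdkn1a and Cdkn2c had ob/ob TBP-2-/- minus ob/ob values smaller than their SE. With spike-in scaling the sign was the same for Ccnd1 alone (1.15 and 0.16). All other genes were then above 0 in TBP-2-/- minus WT and below 0 in ob/ob TBP-2-/- minus ob/ob. The share of all genes with the same sign is not given. The difference between the TBP-2-/- differences was at most 0.38 ± 0.29 in size (Cops5), and 0 of 10 genes passed 1.5-fold by this measure, against 14.4% of 14907 genes. For Ccnd1 it was -0.23 ± 0.29.

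The second question is how the ob/ob genotype differs from lean. Each ob/ob comparison shares 1 array with each TBP-2-/- comparison. In ob/ob minus WT, Cdkn1a was 1.79-fold higher (0.84 ± 0.20, percentile 96.9 of 15087 genes) and Cdk6 1.65-fold higher (0.72 ± 0.21, percentile 95.9). By the brightest probes these 2 of the 10 genes passed 1.5-fold, against 6.34% of all genes higher and 6.63% lower. Cdk6 did not pass with normexp correction (0.49) or with the median of its 3 probes (0.28), 2 of which were not detected. Ccnd2 was at 0.28 ± 0.20 and Ccnd1 at -0.24 ± 0.21, the latter with its sign turned under spike-in scaling (0.39). The dimmest Ccnd2 probe was past 1.5-fold (0.60). The remaining 6 genes lay within 1 SE of 0. The median of the 10 was 0.06, against -0.04 for all genes.

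Without TBP-2 the ob/ob contrast again had Cdkn1a at the top. In ob/ob TBP-2-/- minus TBP-2-/-, which does not use the WT array, Cdkn1a was 1.84-fold higher (0.88 ± 0.20, percentile 97.6 of 15617 genes). It alone of the 10 passed 1.5-fold, where 6.39% of all genes were higher and 4.91% lower. Cdk6 was at 0.49 ± 0.21 (percentile 90.9) and Ccnd2 at 0.37 ± 0.20. Ccnd1 (-0.47 ± 0.20, percentile 7.45) and Cdk4 (-0.42 ± 0.20, percentile 8.88) were the lowest of the 10. Under spike-in scaling Ccnd1 was at -0.60, which is past 1.5-fold. The median of the 10 was 0.19, against 0.04 for all genes. By its brightest probe, no gene of the 10 passed 2-fold in any of the 4 comparisons. Of all genes 2.61%, 2.67%, 3.56% and 3.36% did so in either direction, in the order described. The second Cops5 probe did pass 2-fold in TBP-2-/- minus WT (-1.31) and, by its bound, in ob/ob minus WT (at least 2.62-fold lower). In ob/ob TBP-2-/- minus TBP-2-/- its bound was only 1.06-fold lower. Its TBP-2-/- signal of 11.4 was near the lowest signal well above background on that array, 9.37.

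**Figure D4:**
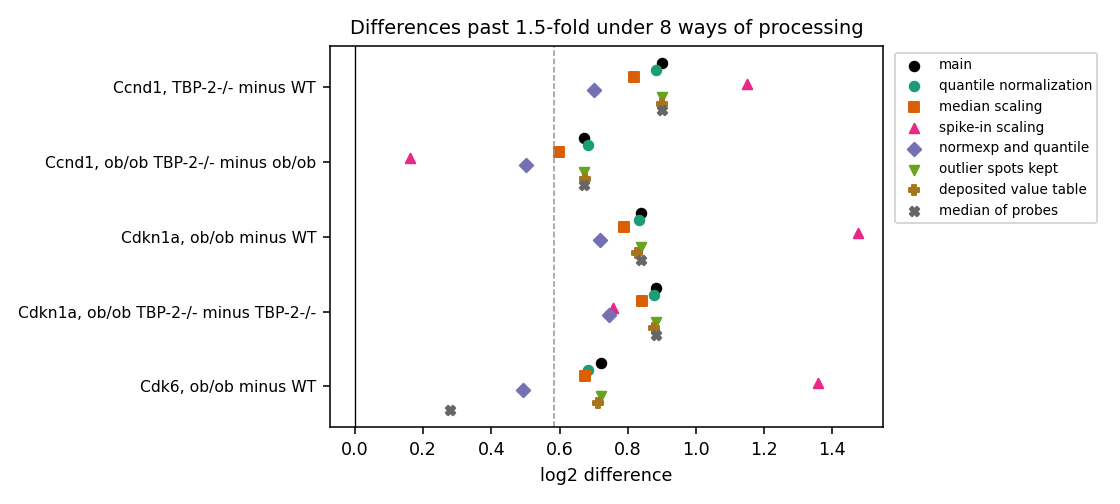
The 5 differences past 1.5-fold (rows) under 8 ways of processing (markers), as log2 difference (x axis); the dashed line marks 1.5-fold. Every marker lies above 0, while Ccnd1 in ob/ob TBP-2-/- minus ob/ob reaches from 0.16 to 0.68 and Cdk6 in ob/ob minus WT from 0.28 to 1.36.

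The 4 arrays allow 1 test, an additive fit of the TBP-2-/- and ob/ob genotypes with limma over 16114 genes, whose error is the departure from additivity. At a Benjamini-Hochberg adjusted p under 0.05 it called 16 genes for TBP-2-/- (0.0993%) and 51 for ob/ob (0.316%), and none of the 10 genes. The fitted TBP-2-/- effect on Ccnd1 was 0.79 ± 0.17 (limma, adjusted p = 0.283, unadjusted p = 0.00622), and its adjusted p ran from 0.151 to 1.0 over the alternatives. The ob/ob effect on Cdkn1a was 0.86 ± 0.16 (limma, adjusted p = 0.155, unadjusted p = 0.00352), with a range of 0.0664 to 0.463. For Cdk6 the ob/ob effect was 0.61 ± 0.17 (limma, adjusted p = 0.253, unadjusted p = 0.0169), with a range of 0.143 to 0.936. These 3 were the effects with an unadjusted p under 0.05 among the 10 genes, where 1593 of all genes had one for TBP-2-/- and 2214 for ob/ob. Ccnd2 was fitted at 0.40 for TBP-2-/- (adjusted p = 0.524) and 0.32 for ob/ob (adjusted p = 0.469).

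**Figure D5:**
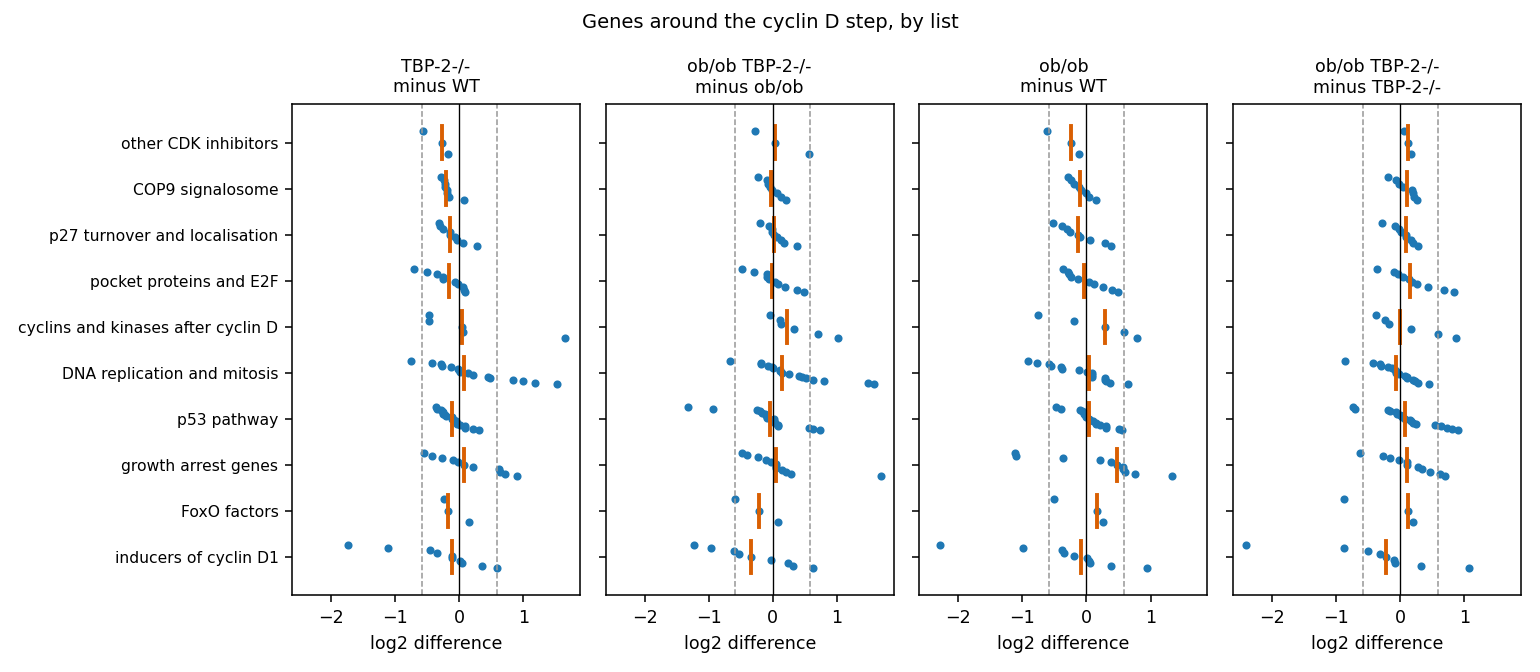
Log2 differences of the genes around the cyclin D step in the 4 comparisons (x axis), by list (rows); each point is 1 gene well above background on both arrays, the orange bar is the list median and dashed lines mark 1.5-fold. Points of the COP9 signalosome and of p27 turnover stay within 1.5-fold in every panel, whereas replication, growth arrest and cyclin D1 inducer genes reach past it.

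Other genes of the pathway were read from lists, counting genes past 1.5-fold. These counts stand beside the shares of all genes given above, 5.91% higher and 3.29% lower in TBP-2-/- minus WT, 6.51% and 3.65% in ob/ob TBP-2-/- minus ob/ob, 6.34% and 6.63% in ob/ob minus WT, and 6.39% and 4.91% in ob/ob TBP-2-/- minus TBP-2-/-. Most lists are too short for a share to be read closely. On the 75th percentile scale 0 of 8 other COP9 signalosome subunits passed in any of the 4 comparisons, with list medians of -0.21, -0.03, -0.11 and 0.11 in the order used above. The genes of p27 turnover and localisation gave the same count, 0 of 9 detected in each comparison. Among these Rnf123, which marks p27 for breakdown in the cytoplasm, had signals of 3831, 3513, 3528 and 3034 before scaling. Skp2, which does so in the nucleus, was not well above background on any array. Of the other inhibitors 3 of 5 were detected on all arrays. Cdkn1c (p57) was 1.53-fold lower in ob/ob minus WT (signals 2427, 2364, 1741 and 2194), a sign that turned under spike-in scaling. Cdkn2a was not well above background on any array.

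Among Rb1 relatives and E2F factors, 10 of 12 were detected. E2f2 was 1.63-fold lower in TBP-2-/- minus WT and 1.78-fold higher in ob/ob TBP-2-/- minus TBP-2-/-, and its signals of 390, 262, 333 and 397 put TBP-2-/- lowest. Tfdp1, the E2F partner, was 1.60-fold higher in that last comparison. Under spike-in scaling the E2f2 difference from WT (-0.46) and that of Tfdp1 (0.56) did not pass. No gene of the list passed in the other 2 comparisons.

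Of 10 cyclins and kinases that act after cyclin D, 5 or 6 were detected per comparison, and most were dim. Higher and lower genes numbered 1 and 0, 2 and 0, 1 and 1, and 2 and 0 in the 4 comparisons. Ccnb2, a mitotic cyclin, had signals of 14.3, 49.2, 23.4 and 32.2, which was 3.15-fold higher in TBP-2-/- minus WT and 1.62-fold higher in ob/ob TBP-2-/- minus ob/ob. Ccna2 was 2.03-fold higher in the latter. Under spike-in scaling neither passed in that comparison (0.19 and 0.51). Ccne2, the cyclin E of the G1 to S step, had signals of 26.8, 30.3, 51.0 and 47.1. It was 1.73-fold and 1.82-fold higher in the ob/ob comparisons, with Ccne1 1.51-fold higher in the second of them. Under spike-in scaling Ccne1 did not pass (0.47). Cdc25a, the phosphatase that activates Cdk2, was 1.70-fold lower in ob/ob minus WT (signals 111, 87.8, 71.7 and 66.6). It did not pass under spike-in scaling (-0.13). Cdk1 and Cdk2 were not well above background on any array.

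Of 21 genes of DNA replication and mitosis, 16 or 17 were detected. In TBP-2-/- minus WT 4 were higher and 1 lower, and in ob/ob TBP-2-/- minus ob/ob likewise 4 and 1. Mki67, a marker of dividing cells, had signals of 23.6, 74.6, 13.8 and 34.9, which was 2.89-fold and 2.98-fold higher without TBP-2. Birc5, a mitotic gene, had 28.7, 71.2, 24.1 and 57.5, or 2.27-fold and 2.81-fold higher. Their probes were dim on every array, and the SE of these differences was 0.24 to 0.36. Tk1, thymidine kinase, went the other way, with 253, 165, 357 and 191, though its difference from WT was -0.50 under spike-in scaling. The replication genes Mcm2 to Mcm7 and Pcna stayed within 1.5-fold in these comparisons. In the ob/ob comparisons 1 and 0 genes of the list were higher and 2 and 1 lower, the lower ones being Mki67 in both and Aurka in ob/ob minus WT, where neither passed under spike-in scaling (-0.27 and -0.14).

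The p53 pathway list was read beside Cdkn1a. In ob/ob minus WT 0 of 19 detected genes passed in either direction, with a list median of 0.04. In ob/ob TBP-2-/- minus TBP-2-/- 4 of 19 were higher, among them Perp (1.86-fold), Sesn1 (1.76-fold) and Trp53inp1 (1.65-fold), and 2 were lower, Btg2 (1.66-fold) and Plk3 (1.62-fold). Mdm2, a p53 target that feeds back on p53, was at 0.10 and 0.17 in the ob/ob comparisons. Trp53 itself was at 0.05 and 0.07. In TBP-2-/- minus WT none of 19 passed, and in ob/ob TBP-2-/- minus ob/ob 2 of 18 were higher and 2 lower. Under spike-in scaling neither of those 2 higher genes, Trp53inp1 (0.22) and Perp (0.11), passed.

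Growth arrest genes varied in both directions. In TBP-2-/- minus WT 4 of 11 were higher, led by Klf4 (1.87-fold), Ndrg1 (1.64-fold) and Gas1 (1.56-fold), all with WT as the lowest array. The ob/ob TBP-2-/- minus ob/ob values of these 3 were -0.48, 0.21 and -0.23. In ob/ob minus WT 3 of 11 were higher, with Gas1 at 2.53-fold, and 2 were lower, Gadd45g (2.17-fold) and Gadd45b (2.15-fold), of which neither passed under spike-in scaling (-0.48 and -0.47). Beside the other 2 higher genes, Klf4 (0.75) and Ndrg1 (0.60), stand values of -0.63 and 0.10 in ob/ob TBP-2-/- minus TBP-2-/-, where Gas1 was at 0.47, Gadd45g at 0.35 and Gadd45b at -0.27. Gadd45g had signals of 55113, 70161, 27896 and 76097, so the ob/ob array was lowest, and it was the 1 of 12 that passed in ob/ob TBP-2-/- minus ob/ob (3.21-fold higher). Tob1 (1.62-fold) and Tob2 (1.54-fold) were higher in ob/ob TBP-2-/- minus TBP-2-/-, though not past 1.5-fold under spike-in scaling (0.57 and 0.50), and Klf4 was lower there (1.55-fold).

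Factors known to induce cyclin D1 did not share 1 direction with Ccnd1. Igf1 was higher without TBP-2 in both comparisons (1.51-fold and 1.54-fold, the second only 0.11 on the log2 scale under spike-in scaling), with signals of 397, 655, 342 and 448 that put the arrays in the order of Ccnd1. Fos (signals 1123, 570, 254 and 92.0) and Egr1 (signals 789, 260, 436 and 190) were lower without TBP-2 in both. For Fos this was 2.16-fold and 2.35-fold, but in the ob/ob comparisons Fos was lower by more, 4.85-fold and 5.28-fold. Egr1 was also 1.98-fold lower in ob/ob minus WT, though not past 1.5-fold under spike-in scaling (-0.35). Igf2 was 1.93-fold and 2.09-fold higher in the ob/ob comparisons. Myc, whose protein binds the E-boxes marked in the Cdk4 window, was within 1.5-fold in all 4 comparisons. Of the FoxO factors, which act on Cdkn1b, Foxo1 and Foxo4 were within 1.5-fold, Foxo3 was not detected, and Foxo6 was 1.51-fold and 1.83-fold lower in the comparisons of ob/ob TBP-2-/- with ob/ob and with TBP-2-/-.

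Markers of other cell types also differed between the arrays. Summed relative signals of 8 adipocyte markers were 206, 312, 135 and 248 on WT, TBP-2-/-, ob/ob and ob/ob TBP-2-/-, and those of 8 macrophage markers 56.5, 73.3, 55.5 and 65.6. Both sums put the arrays in the order of Ccnd1, but neither order held with each marker left out in turn, a check chosen after seeing the data. Without Cfd the adipocyte sums were 153, 205, 130.1 and 236, and without Lyz2 the macrophage sums were 6.26, 9.72, 6.27 and 8.02. The adipocyte median was above 0 in the ob/ob comparisons as well (0.38 and 0.52), where Ccnd1 was below 0, while the macrophage median was -0.05 and -0.21 there. The adipocyte markers were split, with 3 of 8 past 1.5-fold higher and 2 lower in ob/ob minus WT. In ob/ob TBP-2-/- minus TBP-2-/- 4 were higher and 1 lower. Lep was 6.18-fold and 6.09-fold higher in these comparisons, and Cfd 10.4-fold and 8.68-fold lower. In TBP-2-/- minus WT 5 of 8 adipocyte and 3 of 7 detected macrophage markers were past 1.5-fold higher, and in ob/ob TBP-2-/- minus ob/ob 7 of 8 and 2 of 8. Under spike-in scaling neither of those 2 macrophage markers, Mrc1 (0.18) and Adgre1 (0.17), passed. Fibroblast markers summed to 296, 381, 287 and 429, or to 104, 172, 124 and 218 without Dcn. Their part in the Ccnd1, Mki67 and Birc5 values was not tested.

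The satellite cell and myoblast list, of which 6 of 8 markers were detected on all arrays and Myf5 on none, summed to 10.6, 9.96, 13.3 and 11.4, the order of Cdkn1a. Within it Pax7, the satellite cell factor, was level at signals of 36.2, 39.4, 39.0 and 33.4. Myod1, the myogenic factor, had 226, 117, 290 and 65.1, and was 3.79-fold lower in ob/ob TBP-2-/- minus ob/ob. Calcr (signals 67.1, 108, 38.9 and 64.0) and Vcam1 (signals 164, 229, 161 and 216) went the other way there, 1.93-fold and 1.58-fold higher. Under spike-in scaling neither of these passed 1.5-fold (0.44 and 0.14). In ob/ob minus WT Calcr was 1.89-fold lower, but not past 1.5-fold under spike-in scaling (-0.28). The 3 erythroid markers on the array (sums 33.1, 37.7, 41.6 and 45.9) and the tendon markers followed the order of Cdk6, and Schwann cell markers (16.2, 36.3, 28.1 and 42.4) that of Ccnd2. Leaving out any single marker did not alter the order of these 3 sums or of the satellite cell sum. Endothelial markers summed to 23.2, 26.5, 27.8 and 29.5, the order of Cdk6, but to 16.5, 18.7, 17.9 and 16.6 without Vwf. Lymphocyte markers were near the limit of detection, with sums of 0.684 to 0.886 and 4 of 8 not detected on any array. The part of these cell types in the Cdkn1a, Cdk6 and Ccnd2 values was not tested.

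For the genes whose level spanned 1 or more on the log2 scale, Ccnd1 and Cdkn1a, the most similar profiles were sought among 1434 genes with as wide a span, by Euclidean distance between centred log2 levels over the 4 arrays. Closest to Ccnd1 were Airn (distance 0.12), Ucp2 (0.15) and a transcript named by its clone, AK089570 (0.20). Closest to Cdkn1a were Lpar5 (0.05), Insig1 (0.10) and Ankrd9 (0.16). With 4 arrays many genes have similar profiles.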

How the data were processed

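Spot intensity values were made with Agilent Feature Extraction 9.5.3.1, per the file headers. The deposited processed signal is background-subtracted, corrected for spatial trends and not scaled between arrays. The authors also deposited a value table on the log2 scale, which comparison with the scanner signals shows to be scaled at the 75th percentile and centred on each probe's median (medians of -0.06 to 0.09, r of 0.987 to 1.00 with the scanner values); it was used as an alternative.

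From the intensities, log2 signals minus each array's 75th percentile were computed over 41174 non-control probes. Outlier spots (59 to 110 per array) were left out and replicate spots averaged. No spot was saturated. A gene was read by its brightest probe. Probes were named through RefSeq accessions on GRCm38.p6 (24375 probes), symbols (6301) or synonyms (2426), otherwise as in the files (8072). Pair differences were limited to genes well above background on each of the 2 arrays. The additive fit was run with limma 3.58.1 in R 4.3.3 on genes that reached this on 2 or more arrays, with 1 residual degree of freedom. It was tested on simulated data. The number of arrays limits the precision, and p-values reflect only these arrays.

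The 10 genes, the gene lists and the 1.5-fold threshold were chosen with earlier results of these data known. Named genes are all 10, up to 3 genes each way per list and comparison with the largest difference past 1.5-fold, the 3 nearest profiles of genes spanning 1 log2 unit or more, and Txnip. Not every gene that met this rule is named, among the cell type markers in particular. Pcna, the Mcm genes, Cdk1, Cdk2, Trp53, Mdm2, Myc, Rnf123, Skp2, Cdkn2a, Foxo1, Foxo3, Foxo4, Pax7, Myf5, Lyz2, Dcn and Vwf were named outside this rule, after their values were seen.

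Alternatives were quantile, median and spike-in scaling, normexp correction with an offset of 50, other probe, outlier and dim-probe rules, the deposited value table and a 2-fold threshold.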

Additional observations from a re-analysis of the deposited data

How the results depend on the processing

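The 5 differences past 1.5-fold kept their sign in all 8 processing settings. Counts of the 10 genes past 1.5-fold moved as follows. In TBP-2-/- minus WT the count of 1 became 3 under spike-in scaling, 4 with the median of all probes, 3 with the median of the probes well above background (chosen after seeing the data) and 0 at 2-fold. In ob/ob TBP-2-/- minus ob/ob the count of 1 became 4 under spike-in scaling, all lower and without Ccnd1 (Cdk4, Cdkn1a, Cdkn1b and Cdkn2c, -0.74 to -0.68), 0 with normexp and 0 at 2-fold. In ob/ob minus WT the count of 2 became 7, 1 and 0 under the same 3 settings, and 3 with the median of all probes, where Cdk6 (0.28) dropped out and Cdkn1b (-0.70) and Cops5 (-1.90) entered. In ob/ob TBP-2-/- minus TBP-2-/- the count of 1 became 2 under spike-in scaling, with Ccnd1 lower (-0.60), 4 with the median of all probes and 0 at 2-fold. The difference of the TBP-2-/- differences, whose alternatives were chosen after seeing the data, went from 0 genes to 8 under spike-in scaling and 3 with the median of all probes. That median includes probes not above background for Cdk6, Cdkn1b, Cops5 and Rb1. Of 280 single values, 232 moved by less than 1 SE, and 30 of the 48 others did so under spike-in scaling.

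The limma fit called 0 of the 10 genes in every setting. Over all genes it called 16 for TBP-2-/- and 51 for ob/ob, against 0 and 0 with quantile normalization, 97 and 233 with spike-in scaling, 40 and 79 with normexp, 7 and 0 without a filter, 50 and 144 with genes above background on all arrays, and 21 for ob/ob with the median of probes. Genes higher and lower by 1.5-fold numbered 900 and 500, 1006 and 565, 957 and 1000, and 998 and 767 in the 4 comparisons. Under spike-in scaling they were 2085 and 202, 222 and 5410, 7766 and 151, and 646 and 1206. Under median scaling the first pair of comparisons gave 673 and 717, and 777 and 777. The cause of these changes was not tested. No paired analysis was possible because each genotype has 1 array, and for the same reason no array could be left out of a comparison.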
